A study of Mus musculus with 20 samples.

Results

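The lysosomal genes described here are 47 named genes, chosen by symbol as enzymes and membrane proteins of the lysosome with 2 transcription factors and 1 lyase of related function, out of 55487 genes in the deposited table. All 47 were found under their symbol exactly 1 time, and all 47 were among the 17464 genes left after a filter on low counts. By role they are 12 peptidases, 12 glycosidases, 7 sulfatases and other enzymes of heparan or dermatan sulfate breakdown, 7 enzymes and activators of lipid and fatty acid breakdown, 6 membrane proteins and channels, and a last group of 3 with the transcription factors Tfeb and Tfec and the sialic acid lyase Npl. Small intestine of mouse pups was sequenced in bulk after enrichment of polyA RNA, in 4 groups of 5 libraries. The dams of the pups either had periodontitis, an inflammation of the tissue around the teeth, or were controls, and the pups were 2 or 7 weeks old. "Control pups" and "periodontitis pups" below are named by their dams. The labels do not give strain, sex, litter, intestinal segment or batch, and the condition was that of the dam and not of the pup. Nothing in the labels says whether pups of a group came from separate litters, so the p-values measure the spread between these libraries only.

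Lysosomes are acidic compartments in which hydrolases take apart proteins, glycans and lipids that arrive by endocytosis, phagocytosis or autophagy. Most of the hydrolases carry a mannose 6-phosphate tag that directs them to the lysosome, a proton pump (the V-ATPase) keeps the compartment acidic, and TFEB with its relatives can switch on many lysosomal genes together when mTORC1 signalling is low. In suckling rodents the enterocytes of the distal small intestine take up milk proteins whole by endocytosis and digest them in a large lysosomal vacuole, a cell form that is replaced around weaning. In bulk tissue, fewer cells of a type and less RNA per cell cannot be told apart.

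TFEB and its relatives bind the 6-base motif CACGTG, so the promoters of the members were read for it. The window ran from 250 bases before to 50 bases after each start listed for a gene in RefSeq, build GRCm38.p6, and the motif reads the same on both strands. Of the 41 members with an entry in that table, 14 (34.1%) held CACGTG, against 2187 of 27025 genes with an entry (8.09%). The longer motif TCACGTGA, which contains CACGTG, was in 4 of the 41 members (9.76%; Ctsa, Ctsd, Gla and Mcoln1) and in 304 of the 27025 genes (1.12%). The 27025 genes were not limited to those that passed the filter on low counts, as all members did, so these shares compare unlike sets. The 6 sequences that follow are given 5′ to 3′ on the strand of the gene with CACGTG in capitals, for 4 members whose level fell with age in control pups (Lgmn, Glb1, Gla and Gaa) and 2 that did not fall (Lamp1 and Arsa). Lgmn encodes the asparaginyl endopeptidase legumain, Glb1 a beta-galactosidase, Gla alpha-galactosidase A, Gaa acid alpha-glucosidase, Lamp1 a major glycoprotein of the lysosomal membrane and Arsa arylsulfatase A. The windows lie at chr12:102439099-102439178 (minus strand), chr9:114400993-114401072 (plus), chrX:134601157-134601255 (minus), chr11:119267786-119267865 (plus), chr8:13159063-13159160 (plus) and chr15:89477425-89477477 (minus).
Lgmn: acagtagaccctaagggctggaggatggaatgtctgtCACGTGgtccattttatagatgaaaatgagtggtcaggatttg
Glb1: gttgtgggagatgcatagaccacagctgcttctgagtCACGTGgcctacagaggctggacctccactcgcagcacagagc
Gla: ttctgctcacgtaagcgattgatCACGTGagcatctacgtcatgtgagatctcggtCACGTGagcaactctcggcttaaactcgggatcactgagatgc
Gaa: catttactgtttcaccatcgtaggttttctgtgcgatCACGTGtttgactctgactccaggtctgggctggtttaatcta
Lamp1: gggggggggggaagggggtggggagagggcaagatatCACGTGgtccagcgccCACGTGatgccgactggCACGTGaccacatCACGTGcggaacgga
Arsa: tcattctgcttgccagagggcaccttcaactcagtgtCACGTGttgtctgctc
Lamp1 held 4 copies within 98 bases and Gla 2 copies within 99 bases, and the other 4 windows held 1 copy each. The copy of Glb1 lay 48 bases before the start of the gene, and that of Lgmn 49 bases before 1 of its 2 listed starts. In GENCODE the 5′ end of Lgmn is at chr12:102439813, upstream of this window. The motif was also in the promoters of Ctsa, Ctsd, Ctsf, Ctsl, Mcoln1, Naglu, Npl and Sgsh. Between 2 and 7 weeks, where 34.4% of all genes fell in control pups and 35.7% in periodontitis pups (edgeR adjusted p under 0.05), 9 of the 14 members with the motif and 10 of the 27 without it fell in control pups. In periodontitis pups 10 of the 14 and 15 of the 27 fell. Rises numbered 1 of the 14 and 4 of the 27 in control pups, and 0 and 3 in periodontitis pups. A match of letters is a description of the sequence and not a bound site.

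Levels are given in CPM, the deposited expected count relative to the library total after scaling by the trimmed mean of M values (TMM), a factor per library chosen as if most genes were equal. The factor was 0.715 to 0.986 at 7 weeks. At 2 weeks it was 0.836 in control replicate 5 and 1.26 to 1.45 in the other libraries. With age 61.5% of all genes passed in control and 66.1% in periodontitis pups (edgeR adjusted p under 0.05), so small age changes depend on this scaling. The libraries held 14882204 to 42563229 counts. Control replicate 5 at 2 weeks had the lowest total, and 29.4% of its counts came from mitochondrial genes, against 3.99% to 9.15% in the other 19 libraries. It was the lowest of its group for 29 of the 47 members and the highest for 9, and where a call with age changed without it, the value without it is given beside the result. Summed over the 47 members, the levels in control replicates 1 to 5 at 2 weeks were 7785, 6852, 7551, 5141 and 4661 CPM. In the periodontitis pups of that age they were 9547, 7745, 12149, 12714 and 12323 CPM. Replicates 3, 4 and 5 of the periodontitis pups were the highest, and replicate 2 was level with the highest controls. At 7 weeks the sum was 5026 to 5667 CPM in control pups and 4978 to 5733 CPM in periodontitis pups, a narrow band in which the 2 kinds of dam overlapped. The share of all deposited counts taken by the members, which no scaling touches, was 0.389% to 1.02% and 1.04% to 1.85% at 2 weeks and 0.397% to 0.474% and 0.392% to 0.490% at 7 weeks, in control and periodontitis pups in that order.

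**Figure D1:**
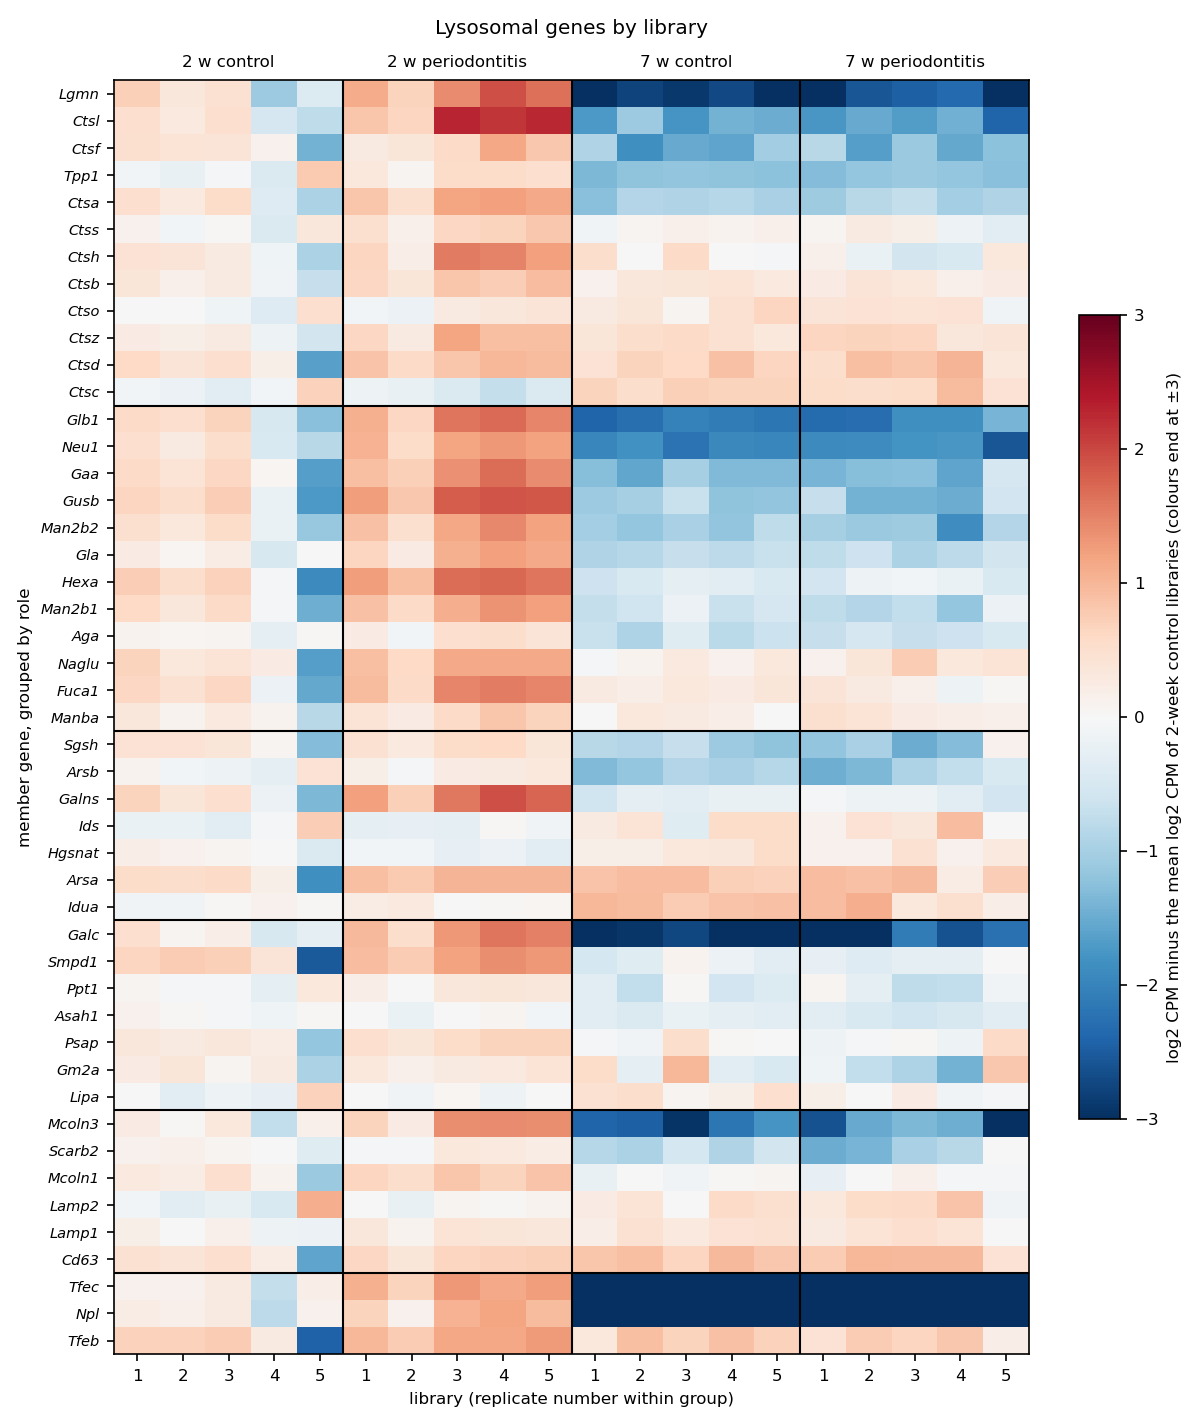
Level of each of the 47 members (rows, grouped by role) in each of the 20 libraries (columns, grouped by age and dam). Values are log2 CPM minus the mean log2 CPM of that gene over the control libraries at 2 weeks. Tfec, Npl, Galc and Lgmn are higher in the 10 libraries at 2 weeks than in the 10 at 7 weeks, and most hydrolases are highest in periodontitis replicates 3, 4 and 5 at 2 weeks.

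Compared per kilobase of exon, which allows different genes to be set side by side, Lamp1 had the highest mean level of the 47 in control pups at both ages, 249 ± 28.1 CPM per kilobase at 2 weeks and 320.0 ± 25.7 at 7 weeks (SD, n = 5). Lgmn was the next highest at 2 weeks, at 206 ± 89.9 CPM per kilobase, and stood at place 13 at 7 weeks with 25.1 ± 3.41. In periodontitis pups at 2 weeks Lgmn had the highest mean of all 47, at 503 ± 160.0 CPM per kilobase. The ranges of Lamp1, Lgmn and Ctsz, the third in order, overlapped in control pups at 2 weeks. Npl moved from place 8 in control pups at 2 weeks (92.5 ± 23.0 CPM per kilobase) to place 42 at 7 weeks (2.12 ± 0.590). Tfec was the lowest of the 47 at 7 weeks, at 0.0718 ± 0.0179 CPM per kilobase, where it had been at place 38 at 2 weeks. Lengths are those of all exons joined in GENCODE M21, so they stand for no particular transcript.

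Between 2 and 7 weeks, 21 of the 47 members fell and 6 rose in control pups, and 30 fell and 4 rose in periodontitis pups (edgeR quasi-likelihood test, Benjamini-Hochberg adjusted p under 0.05 over all genes tested). Age moved much of the transcriptome: 34.4% of all genes tested fell and 27.1% rose in control pups, and 35.7% fell and 30.4% rose in periodontitis pups. The members' shares of 44.7% and 63.8% falling and of 12.8% and 8.51% rising stand beside these. The median log2 fold change of the members, 7 against 2 weeks, was -0.39 in control pups, where that of all genes was -0.13, and -0.99 in periodontitis pups, where that of all genes was -0.11. The 7-week level lay below every 2-week level for 14 members in control pups (23.2% of all genes did so) and for 25 in periodontitis pups (28.3%). It lay above every 2-week level for 5 members (22.5% of all genes) and 2 members (24.9%). The 2 age comparisons share no library but come from the same fit, with the same estimate of the spread. How many of all genes passed in both was not counted, so the members' overlap has no such share beside it. Of the members 21 fell in both, 3 rose in both and 10 passed in neither. A further 9 passed as lower in periodontitis pups and did not pass in control pups, 3 passed as higher in control pups alone and 1 as higher in periodontitis pups alone. The difference between the 2 age changes was tested itself, as the last contrast below, and 0 of the 47 passed. The split between the kinds of pup rested in part on control replicate 5 at 2 weeks, the library with 29.4% mitochondrial counts. Without it 25 members fell and 9 rose in control pups: Hexa, Galns, Smpd1 and Mcoln1, 4 of the 9 above, passed as lower, Ctso, Arsa, Ids, Lipa and Lamp2 passed as higher, and Ctsz and Hgsnat no longer passed. The number of rises in control pups was 3 without control replicate 4 at 2 weeks or without control replicate 4 at 7 weeks.

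By role, 8 of the 12 glycosidases fell in control pups and 10 of the 12 in periodontitis pups, and 0 rose in either. Of the 12 peptidases 5 fell and 2 rose in control pups, and 8 fell and 1 rose in periodontitis pups. Of the 7 sulfatases and related enzymes 2 fell and 2 rose, and 3 fell and 3 rose. Of the 7 lipid enzymes and activators 2 fell in control pups and 4 in periodontitis pups, with 0 rises. Of the 6 membrane proteins 2 fell and 2 rose in control pups, and 3 fell and 0 rose in periodontitis pups. Tfec and Npl fell in both, and Tfeb passed in neither. The rest of the account of age goes through these roles, with the levels in replicates 1 to 5 in that order, log2 fold changes with their standard error (SE) and edgeR adjusted p-values.

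Among the peptidases the legumain gene Lgmn (ENSMUSG00000021190) fell furthest. Its level in control pups was 719, 552, 595, 205 and 327 CPM at 2 weeks and 55.2, 63.6, 58.9, 66.9 and 46.5 CPM at 7 weeks. Periodontitis pups had 947, 695, 1172, 1657 and 1369 CPM at 2 weeks and 51.8, 73.6, 80.0, 86.6 and 53.5 CPM at 7 weeks. All 10 libraries at 7 weeks lay below all 10 at 2 weeks, and at 2 weeks control replicate 4 was the lowest and periodontitis replicate 4 the highest. The log2 fold change was -3.04 ± 0.30 in control pups (edgeR adjusted p = 1.97e-07) and -4.08 ± 0.32 in periodontitis pups (edgeR adjusted p = 6.43e-09). Ctsl encodes the cysteine endopeptidase cathepsin L. Its level was 383, 331, 383, 189.6 and 159 CPM in control pups at 2 weeks and 82.5, 127, 79.5, 102 and 96.9 CPM at 7 weeks. In periodontitis pups the levels were 485, 425, 1316, 1201 and 1301 CPM and then 81.4, 95.2, 84.2, 99.7 and 51.4 CPM. The ages did not overlap in either kind of pup, and periodontitis replicates 3, 4 and 5 at 2 weeks were above the other 17 libraries. Ctsl fell by a log2 fold change of -1.57 ± 0.32 in control pups (edgeR adjusted p = 0.000376) and of -3.52 ± 0.35 in periodontitis pups (edgeR adjusted p = 1.01e-07). By the GENCODE annotation 26.8% of the exon bases of Ctsl are shared with other annotated genes, and whether the counting used strand is not given in the sources used here.

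Tpp1, which encodes a tripeptidyl peptidase, was at 87.9, 79.6, 90.4, 68.1 and 159 CPM in control pups at 2 weeks and at 36.6, 40.3, 40.6, 40.2 and 39.2 CPM at 7 weeks. The periodontitis libraries were at 116, 98.4, 136, 135 and 131 CPM at 2 weeks and at 37.7, 41.6, 43.2, 41.4 and 38.6 CPM at 7 weeks. The 7-week levels stayed within a narrow band below all levels at 2 weeks, among which control replicate 5 was the highest. The log2 fold change was -1.30 ± 0.17 (edgeR adjusted p = 5.42e-06) in control pups and -1.60 ± 0.17 (edgeR adjusted p = 3.17e-07) in periodontitis pups. Ctsc and Ctsz were the peptidases that rose. Ctsc encodes cathepsin C, a dipeptidyl peptidase that activates serine proteases of immune cells, and it rose in both kinds of pup, by 0.60 ± 0.17 and 1.00 ± 0.17 on the log2 scale (edgeR adjusted p = 0.0046 and 4.44e-05). Ctsz, which encodes the carboxypeptidase cathepsin Z, was at 317, 299, 322, 240.4 and 183 CPM in control pups at 2 weeks and at 341, 386, 394, 363 and 334 CPM at 7 weeks. With affected dams it was at 412, 322, 605, 497 and 498 CPM and then at 419, 426, 418, 339 and 350.1 CPM. It rose in control pups without overlap (log2 fold change 0.42 ± 0.17, edgeR adjusted p = 0.0403), while the ages overlapped in periodontitis pups (-0.26 ± 0.17, edgeR adjusted p = 0.191). The rise of Ctsz did not pass without control replicate 4 or 5 at 2 weeks or replicate 2, 3 or 4 at 7 weeks (0.30 to 0.42, edgeR adjusted p = 0.0629 to 0.0893). Ctsh, which encodes the aminopeptidase cathepsin H, was at 63.6, 61.4, 57.3, 43.5 and 24.4 CPM at 2 weeks and 68.6, 46.6, 70.1, 47.4 and 45.7 CPM at 7 weeks in control pups. At 2 weeks periodontitis pups were at 73.4, 54.4, 139, 133 and 111 CPM, and at 7 weeks at 52.2, 41.1, 32.5, 34.4 and 59.0 CPM. The ages overlapped in both kinds of pup, and replicates 3, 4 and 5 of the periodontitis pups at 2 weeks were again the highest. Ctsh fell in periodontitis pups (log2 fold change -1.22 ± 0.28, edgeR adjusted p = 0.000722) and did not pass in control pups, at 0.15 ± 0.27 (edgeR adjusted p = 0.644). The remaining falls among peptidases were of Ctsa, the carboxypeptidase that protects the sialidase and beta-galactosidase, and of Ctsf in both kinds of pup, and of Ctsb and Ctss in periodontitis pups, from -1.90 ± 0.29 for Ctsf to -0.43 ± 0.17 for Ctsb there. Ctsb did not pass without periodontitis replicate 3 or 5 at 2 weeks or replicate 4 at 7 weeks (-0.40, -0.38 and -0.40). Ctsd and Ctso passed in neither, and Ctso, of the cathepsin family, passed as higher in control pups without control replicate 5 at 2 weeks (0.49, edgeR adjusted p = 0.00542) or replicate 3 at 7 weeks (0.42, edgeR adjusted p = 0.0467).

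**Figure D2:**
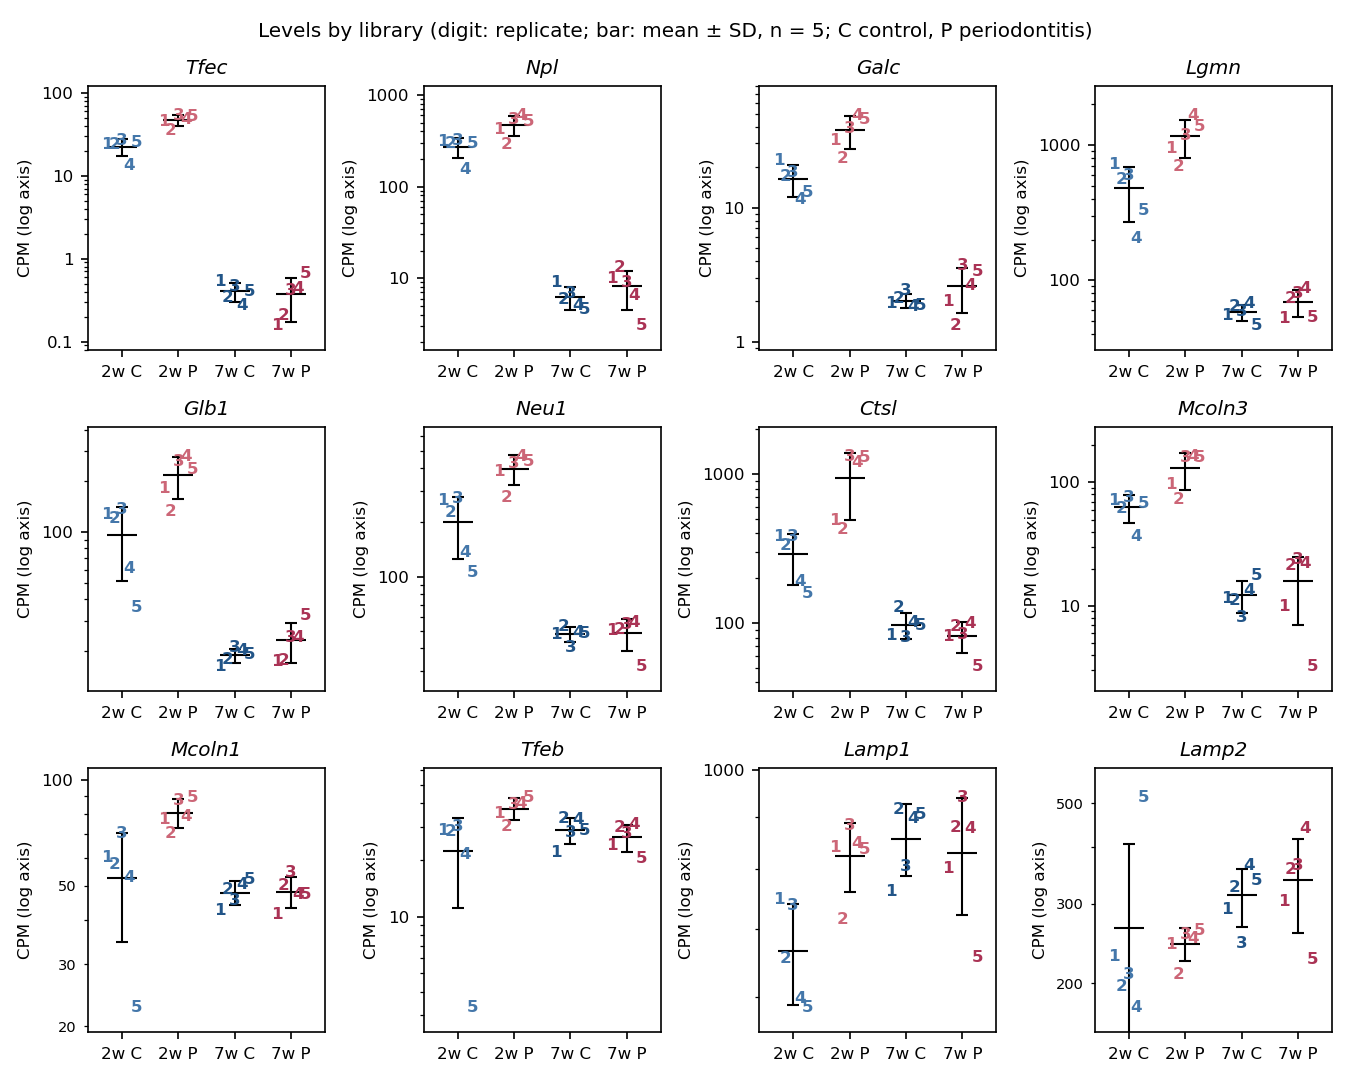
Level in CPM on a log axis of 12 members in each library, marked by its replicate number, with the mean ± SD of each group of 5 (2w and 7w, weeks of age, C and P, control and periodontitis). Tfec, Npl, Galc, Lgmn, Glb1, Neu1, Ctsl and Mcoln3 are lower at 7 than at 2 weeks in every library, while Mcoln1, Tfeb, Lamp1 and Lamp2 overlap between ages in at least 1 kind of pup.

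Among the glycosidases the sialidase gene Neu1 (ENSMUSG00000007038), whose product removes terminal sialic acid from glycans, was at 266, 227, 271, 136 and 105 CPM in control pups at 2 weeks and at 48.1, 53.3, 40.6, 48.9 and 48.6 CPM at 7 weeks. Periodontitis pups had 385, 276, 427, 464 and 436 CPM at 2 weeks and 50.1, 51.0, 54.1, 56.0 and 31.9 CPM at 7 weeks. All libraries at 7 weeks were below all at 2 weeks, and at 2 weeks the lowest periodontitis library lay just above the highest control. Neu1 fell by a log2 fold change of -2.07 ± 0.24 in control pups (edgeR adjusted p = 9.48e-07) and of -3.03 ± 0.24 in periodontitis pups (edgeR adjusted p = 1.01e-08). Glb1, the beta-galactosidase gene, was at 127, 120.2, 136, 61.0 and 35.7 CPM at 2 weeks and 16.2, 17.9, 20.8, 19.97 and 18.9 CPM at 7 weeks in control pups. In periodontitis pups the levels were 179, 132, 259.5, 278 and 234 CPM and then 17.3, 17.5, 23.9, 24.0 and 32.4 CPM. The highest level at 7 weeks, in periodontitis replicate 5, was below the lowest at 2 weeks, in control replicate 5. The log2 fold changes were -2.36 ± 0.30 (edgeR adjusted p = 3.61e-06) and -3.23 ± 0.31 (edgeR adjusted p = 8.25e-08). Gla, the alpha-galactosidase A gene on the X chromosome, was at 19.3, 16.9, 19.0, 11.7 and 16.1 CPM in control pups at 2 weeks and at 8.76, 8.97, 10.2, 9.46 and 10.3 CPM at 7 weeks. The periodontitis libraries were at 25.6, 19.3, 34.2, 38.4 and 35.8 CPM at 2 weeks and at 9.63, 10.5, 8.49, 9.41 and 11.2 CPM at 7 weeks. It fell in both, by -0.80 ± 0.17 (edgeR adjusted p = 0.000631) and -1.64 ± 0.18 (edgeR adjusted p = 2.9e-07) on the log2 scale, with the ages close but not overlapping. The acid alpha-glucosidase gene Gaa fell by -1.48 ± 0.31 and -2.40 ± 0.31, and Gusb, which encodes beta-glucuronidase, by -1.25 ± 0.33 and -2.65 ± 0.35. Man2b1 and Man2b2, which encode alpha-mannosidases, and Aga, whose product cuts the bond between asparagine and its glycan, fell in both as well. Man2b1 in control pups, at -0.68 ± 0.27, did not pass when replicate 1, 2 or 3 at 2 weeks or replicate 1, 2, 4 or 5 at 7 weeks was left out (-0.68 to -0.55, edgeR adjusted p = 0.061 to 0.106). Hexa, which encodes a subunit of beta-hexosaminidase, and the alpha-fucosidase gene Fuca1 fell in periodontitis pups, by -1.74 ± 0.31 and -1.09 ± 0.28, and did not pass in control pups, at -0.68 ± 0.31 and 0.09 ± 0.28. Without control replicate 5 at 2 weeks Hexa fell in control pups too, at -0.94 (edgeR adjusted p = 9.78e-05). Naglu and the beta-mannosidase gene Manba passed in neither, and Naglu passed as lower in periodontitis pups without replicate 2 at 2 weeks (-0.68, edgeR adjusted p = 0.0367) or replicate 3 at 7 weeks (-0.70, edgeR adjusted p = 0.0371), from -0.59 ± 0.26.

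The sulfatases and related enzymes, which take apart glycosaminoglycans and sulfated lipids, moved both ways. Galns, which encodes the sulfatase of N-acetylgalactosamine-6-sulfate, was at 53.0, 42.9, 46.98, 29.4 and 13.04 CPM in control pups at 2 weeks and at 21.8, 27.7, 26.5, 28.6 and 28.7 CPM at 7 weeks. With affected dams it was at 77.9, 54.9, 99.3, 127 and 112 CPM and then at 32.3, 30.1, 29.8, 26.2 and 22.4 CPM. The ages overlapped in control pups, where replicate 5 at 2 weeks was the lowest of all 20 libraries, and did not overlap in periodontitis pups. Galns fell in periodontitis pups (log2 fold change -1.74 ± 0.28, edgeR adjusted p = 2.16e-05) and did not pass in control pups, at -0.48 ± 0.27 (edgeR adjusted p = 0.13). Without control replicate 5 at 2 weeks it fell in control pups too, at -0.69 (edgeR adjusted p = 0.00433). Idua encodes the iduronidase of heparan and dermatan sulfate and was at 6.37, 6.42, 7.09, 7.55 and 7.00 CPM in control pups at 2 weeks and at 13.8, 13.2, 11.7, 12.5 and 12.6 CPM at 7 weeks. At 2 weeks periodontitis pups were at 8.08, 8.46, 6.94, 7.04 and 7.198 CPM, and at 7 weeks at 12.97, 14.6, 8.59, 9.60 and 7.87 CPM. It rose in both, by 0.89 ± 0.16 (edgeR adjusted p = 9.74e-05) and 0.51 ± 0.16 (edgeR adjusted p = 0.00808), without overlap in control pups and with overlap in periodontitis pups. Hgsnat, which encodes the acetyltransferase of heparan sulfate breakdown, rose by 0.30 ± 0.13 and 0.42 ± 0.13. In control pups Hgsnat did not pass without replicate 3, 4 or 5 of either age (0.21 to 0.32, edgeR adjusted p = 0.0561 to 0.132). Ids, the iduronate sulfatase gene on the X chromosome, rose in periodontitis pups (0.57 ± 0.21) and did not pass in control pups (0.27 ± 0.21). It passed in control pups without replicate 5 at 2 weeks (0.50, edgeR adjusted p = 0.0178), and did not pass in periodontitis pups without replicate 4 at 7 weeks (0.41, edgeR adjusted p = 0.0872). Arsb and Sgsh fell in both kinds of pup, by -1.04 ± 0.18 and -1.07 ± 0.30 in control pups. Arsa passed in neither, at 0.60 ± 0.27 in control pups, where it passed as higher without replicate 3 at 2 weeks (0.70, edgeR adjusted p = 0.048) or replicate 5 (0.35, edgeR adjusted p = 0.0191). Arsb shares 39.9% and Sgsh 21.6% of their exon bases with other annotated genes on the opposite strand.

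Galc, which encodes galactosylceramidase, had the largest fall among the genes of lipid breakdown. It was at 22.4, 16.9, 18.3, 11.4 and 12.9 CPM in control pups at 2 weeks and at 1.92, 2.11, 2.39, 1.83 and 1.85 CPM at 7 weeks. Periodontitis pups had 31.4, 23.1, 39.0, 48.5 and 45.3 CPM at 2 weeks and 2.00, 1.33, 3.71, 2.62 and 3.36 CPM at 7 weeks. The ages were far apart in both, with log2 fold changes of -3.02 ± 0.27 (edgeR adjusted p = 5.23e-08) and -3.83 ± 0.27 (edgeR adjusted p = 3.1e-09). The acid ceramidase gene Asah1 was at 65.9, 61.6, 58.1, 55.0 and 62.1 CPM in control pups at 2 weeks and at 48.4, 44.5, 52.2, 49.4 and 47.5 CPM at 7 weeks. In periodontitis pups the levels were 61.2, 52.9, 60.3, 64.0 and 56.9 CPM and then 48.6, 43.8, 40.2, 43.4 and 48.4 CPM. Its falls were small, -0.32 ± 0.10 and -0.40 ± 0.10 (edgeR adjusted p = 0.00852 and 0.00172), and its ages did not overlap. Lipa encodes the acid lipase that splits cholesteryl esters and triglycerides. It was at 188, 149, 167, 155 and 299 CPM in control pups at 2 weeks and at 253, 268, 197, 211 and 263 CPM at 7 weeks. The periodontitis libraries were at 184, 173, 192, 166 and 185 CPM at 2 weeks and at 209, 186, 221, 172 and 178 CPM at 7 weeks. Lipa passed in neither (0.31 ± 0.17 and 0.10 ± 0.17, edgeR adjusted p = 0.106 and 0.596), and control replicate 5 at 2 weeks was its highest library. Without that library Lipa rose in control pups, at 0.53 (edgeR adjusted p = 0.000377). Gm2a, which encodes the activator protein for breakdown of the ganglioside GM2, was at 19.3, 20.9, 17.2, 19.7 and 8.45 CPM at 2 weeks and 23.9, 13.4, 32.5, 12.8 and 11.9 CPM at 7 weeks in control pups. With affected dams it was at 20.4, 18.1, 19.6, 20.2 and 21.7 CPM and then at 14.9, 9.82, 8.66, 6.11 and 28.8 CPM. Its libraries at 7 weeks were spread widely in both kinds of pup, and it passed in neither (0.14 ± 0.35 and -0.54 ± 0.35). Without periodontitis replicate 5 at 7 weeks, the highest of that group, Gm2a fell in periodontitis pups, at -1.03 (edgeR adjusted p = 0.00689). The sphingomyelinase gene Smpd1 and Ppt1, which encodes a thioesterase that removes palmitate from proteins, fell in periodontitis pups, by -1.37 ± 0.34 and -0.58 ± 0.17, and did not pass in control pups, at -0.62 ± 0.34 and -0.39 ± 0.17. In control pups Smpd1 fell without replicate 5 at 2 weeks (-0.89, edgeR adjusted p = 4.04e-05), and Ppt1 without replicate 4 at 2 weeks (-0.46, edgeR adjusted p = 0.0393) or replicate 3 at 7 weeks (-0.51, edgeR adjusted p = 0.0177). Psap, the precursor of the saposins, passed in neither, and fell in periodontitis pups without replicate 5 at 7 weeks, at -0.66 against -0.48 ± 0.22 (edgeR adjusted p = 0.016).

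Among the membrane proteins Mcoln3, which encodes a cation channel of endosomes and lysosomes, was at 71.6, 62.0, 76.1, 36.2 and 67.9 CPM in control pups at 2 weeks and at 11.4, 11.1, 7.97, 13.4 and 17.7 CPM at 7 weeks. At 2 weeks periodontitis pups were at 95.8, 72.4, 159.8, 163 and 160.0 CPM, and at 7 weeks at 9.87, 21.2, 23.7, 22.1 and 3.24 CPM. It fell in both kinds of pup without overlap, by -2.35 ± 0.40 (edgeR adjusted p = 6.03e-05) and -3.03 ± 0.41 (edgeR adjusted p = 3.52e-06). The lysosomal calcium channel gene Mcoln1 was at 60.01, 57.4, 70.3, 53.0 and 22.6 CPM in control pups at 2 weeks and at 42.5, 48.7, 45.6, 50.3 and 52.0 CPM at 7 weeks. Periodontitis pups had 77.1, 70.6, 87.5, 78.5 and 89.2 CPM at 2 weeks and 41.4, 50.03, 54.4, 47.3 and 47.3 CPM at 7 weeks. The ages overlapped in control pups (-0.14 ± 0.19, edgeR adjusted p = 0.541) and did not in periodontitis pups, where Mcoln1 fell by -0.74 ± 0.20 (edgeR adjusted p = 0.00248). Without control replicate 5 at 2 weeks, its lowest library, Mcoln1 fell in control pups as well, at -0.33 (edgeR adjusted p = 0.00618). Lamp1 was at 748, 655, 737, 599 and 587 CPM in control pups at 2 weeks and at 761, 914, 805, 896 and 904 CPM at 7 weeks. In periodontitis pups the levels were 839, 715, 882, 846 and 836 CPM and then 801, 878, 939.6, 876 and 656 CPM. Lamp1 rose in control pups without overlap (log2 fold change 0.36 ± 0.13, edgeR adjusted p = 0.0206), while in periodontitis pups the fold change was 0.01 ± 0.13 (edgeR adjusted p = 0.942), with a sign that turned in some of the other settings. The rise in control pups did not pass without replicate 4 at 2 weeks (0.33, edgeR adjusted p = 0.0527). Lamp2, its partner on the X chromosome, was at 229, 196, 209, 177 and 515 CPM in control pups at 2 weeks and at 291, 325, 245, 364 and 338 CPM at 7 weeks. The periodontitis libraries were at 244, 209, 256, 251 and 261 CPM at 2 weeks and at 304, 357, 364, 439 and 225 CPM at 7 weeks. Control replicate 5 at 2 weeks was its highest library and more than the other controls by far, and Lamp2 passed in neither comparison (0.24 ± 0.24 and 0.47 ± 0.24). Without that library it rose in control pups, at 0.62 (edgeR adjusted p = 0.0017), and without periodontitis replicate 5 at 7 weeks it rose in periodontitis pups, at 0.56 (edgeR adjusted p = 0.042). Scarb2, the receptor that carries glucocerebrosidase to the lysosome, fell in both, by -0.76 ± 0.22 and -0.99 ± 0.22. The tetraspanin gene Cd63 rose in control pups by 0.67 ± 0.25 (edgeR adjusted p = 0.0265) and was at 0.23 ± 0.25 in periodontitis pups. The control value was 0.43 without replicate 5 at 2 weeks (edgeR adjusted p = 0.00361), and 0.63 and not past the threshold without replicate 4 at 7 weeks (edgeR adjusted p = 0.0537).

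Tfec (ENSMUSG00000029553), a relative of Tfeb, and Npl (ENSMUSG00000042684), whose product splits free sialic acid in the cytosol, had the largest falls of all 47 members. Tfec was at 23.9, 23.7, 26.4, 13.3 and 25.0 CPM in control pups at 2 weeks and at 0.531, 0.343, 0.459, 0.272 and 0.402 CPM at 7 weeks. With affected dams it was at 45.7, 34.7, 53.5, 48.0 and 52.1 CPM and then at 0.157, 0.205, 0.416, 0.436 and 0.665 CPM. Its level at 7 weeks rested on 4 to 23 counts per library. The log2 fold change was -5.78 ± 0.30 in control pups (edgeR adjusted p = 1.66e-10) and -6.90 ± 0.31 in periodontitis pups (edgeR adjusted p = 2.44e-11). Npl was at 308, 294, 321, 154 and 292 CPM in control pups at 2 weeks and at 8.99, 5.88, 6.89, 5.06 and 4.59 CPM at 7 weeks. At 2 weeks periodontitis pups were at 419.8, 291, 544, 599 and 514 CPM, and at 7 weeks at 9.83, 13.05, 8.90, 6.54 and 3.07 CPM. All 10 libraries at 7 weeks were far below all 10 at 2 weeks, and control replicate 4 was the lowest at 2 weeks. Npl fell by -5.44 ± 0.36 (edgeR adjusted p = 2.55e-09) and -5.84 ± 0.36 (edgeR adjusted p = 6.75e-10) on the log2 scale. Tfeb itself was at 28.8, 28.4, 29.99, 21.3 and 3.30 CPM in control pups at 2 weeks and at 22.02, 33.3, 27.9, 32.7 and 28.8 CPM at 7 weeks. Periodontitis pups had 35.5, 30.002, 39.6, 39.7 and 43.1 CPM at 2 weeks and 23.9, 29.9, 27.8, 30.7 and 20.3 CPM at 7 weeks. Control replicate 5 at 2 weeks was its lowest library, and the ages overlapped (0.36 ± 0.33 and -0.50 ± 0.33, edgeR adjusted p = 0.349 and 0.186).

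**Figure D3:**
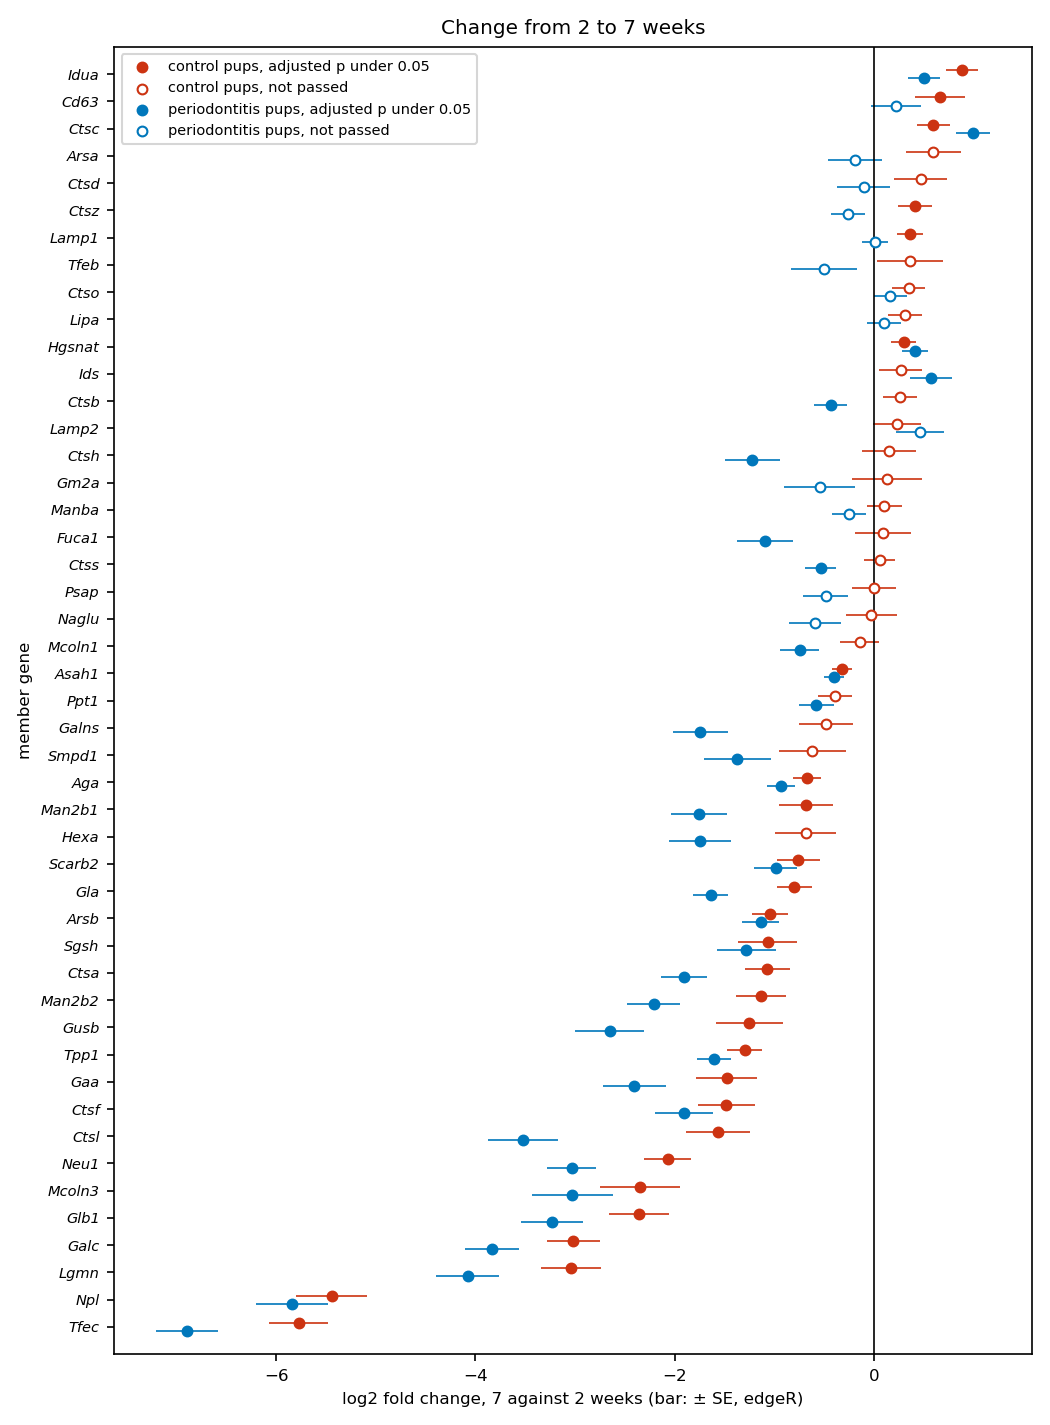
Log2 fold change with age (7 over 2 weeks) of each of the 47 members for either kind of dam, with its SE as a bar. Filled points passed an edgeR adjusted p under 0.05, which 27 members did in control pups and 34 in periodontitis pups, and Tfec and Npl lie furthest to the left in both.

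Other genes of the pathway were read from lists written with earlier results of these data known. Of 28 further lysosomal enzymes and transport proteins 12 fell and 3 rose in control pups, and 19 fell and 3 rose in periodontitis pups (edgeR, against 34.4% and 27.1%, and 35.7% and 30.4%, of all genes). Slc17a5, the transporter that lets sialic acid out of the lysosome, fell by -2.48 ± 0.33 and -3.34 ± 0.34 on the log2 scale in control and periodontitis pups. Dpp7, which encodes a dipeptidyl peptidase, fell by -1.73 ± 0.29 and -3.23 ± 0.31. The subunits of the V-ATPase did not follow this direction in control pups, where 7 of 16 tested rose and 0 fell, with Atp6v0e at 1.49 ± 0.16. In periodontitis pups 3 rose and 3 fell, with Atp6v0e at 1.22 ± 0.16 and Atp6v1b2 at -1.06 ± 0.22. Of 6 genes of mannose 6-phosphate tagging and sorting 2 rose and 1 fell in each kind of pup, and Gnptab, which encodes the catalytic subunits of the enzyme that starts the tag, fell by -0.71 ± 0.15 and -0.43 ± 0.15. Of 9 relatives of Tfeb and genes of mTORC1 signalling 4 rose and 1 fell in control pups, and 3 rose and 2 fell in periodontitis pups. Rragd, which encodes a GTPase that recruits mTORC1 to the lysosome, rose by 0.97 ± 0.11 in each.

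Several other markers moved with age beside the members. A sum over 6 genes of endocytosis in suckling enterocytes was 571 to 1588 CPM in control pups and 1560 to 4779 CPM in periodontitis pups at 2 weeks, and 369 to 541 and 304 to 733 CPM at 7 weeks. A sum over 6 genes of weaned enterocytes was 2401 to 4988 and 549 to 2208 CPM at 2 weeks, and 9958 to 11595 and 8373 to 12333 CPM at 7 weeks. A sum over 12 macrophage genes, of which all 12 were detected in every library, was 150.4 to 310 and 307 to 366 CPM at 2 weeks and 141 to 333 and 96.0 to 255 CPM at 7 weeks. The lysosomal members are expressed in macrophages too. A sum over 7 epithelial genes was 4152 to 7220 and 4000 to 6244 CPM at 2 weeks, and 9757 to 11695 and 7579 to 12269 CPM at 7 weeks. Smooth muscle genes, 5 in all, summed to 1415 to 1883 and 884 to 2877 CPM at 2 weeks and to 462 to 994 and 401 to 1171 CPM at 7 weeks. Regional genes moved as well: a sum over 5 genes of the distal intestine was 649 to 1049 and 309 to 962 CPM at 2 weeks, and 266 to 373 and 258 to 421 CPM at 7 weeks. Of the 5, Fgf15, Fabp6 and Slc10a2 fell in both kinds of pup, and Fgf15, a hormone gene of the ileum, was at 0 in all 10 libraries at 7 weeks. Slc51b, which encodes a subunit of a bile acid transporter, rose in periodontitis pups. A sum over 6 genes of the proximal intestine was 2884 to 3578 and 1986 to 3357 CPM at 2 weeks, and 5132 to 7950 and 4548 to 8708 CPM at 7 weeks. The part of cell types and of intestinal region in the members' changes was not tested. Sex also moved with age: Xist was at most 0.392 and 0.658 CPM at 7 weeks in control and periodontitis pups, and up to 92.3 and 137 CPM at 2 weeks, while the Y-linked Ddx3y was at least 34.4 and 29.2 CPM at 7 weeks and as low as 0 and 0.0374 CPM at 2 weeks. The 2-week libraries differed among themselves in both transcripts, and several held both. Control replicates 2 to 5 had 16.1 to 77.4 CPM of Ddx3y and 16.6 to 90.0 CPM of Xist. Periodontitis replicates 2 and 5 each had 30.7 CPM of Ddx3y, with 7.10 and 7.58 CPM of Xist. Whether these libraries mix tissue of both sexes was not tested. Periodontitis replicate 3 at 2 weeks had 35.02 CPM of Ddx3y and 0.710 CPM of Xist, near the 7-week libraries. The part of sex in the age changes, those of the X-linked members Gla, Ids and Lamp2 included, was not tested.

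**Figure D4:**
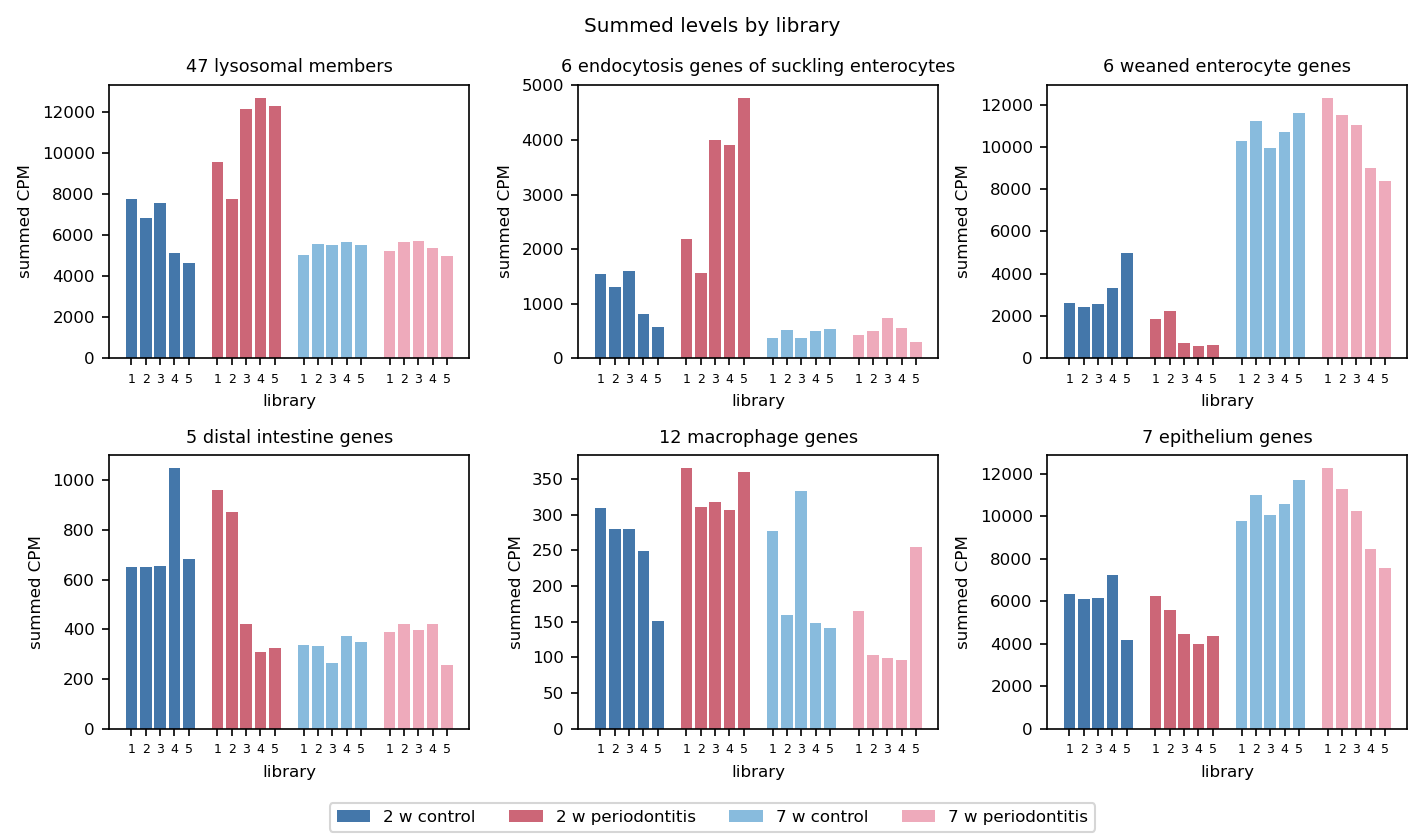
Summed level in CPM of the 47 members and of lists of marker genes in each of the 20 libraries, grouped by age and dam. The members' sum is 7745 to 12714 CPM in periodontitis pups at 2 weeks and 4661 to 7785 CPM in control pups, and is between 4978 and 5733 CPM in all libraries at 7 weeks.

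At 2 weeks, most members had a higher mean in periodontitis than in control pups, but 0 of the 47 passed the edgeR test at an adjusted p of 0.05, which 0.0286% of all genes did. The question of this comparison was whether periodontitis of the dam goes with a difference in the intestine of the pup. The log2 fold change, periodontitis against control, was above 0 for 41 of the 47 (52.7% of all genes), with a median of 0.66 where that of all genes was 0.02. At an unadjusted p under 0.05 there were 31 members, 30 higher and Ctsc lower, against 14.4% of all genes in either direction and 5.31% higher. All 5 periodontitis libraries were above all 5 control libraries for 15 members, which held for 3.71% of all genes, and 0 members were apart in the other direction (3.54% of all genes). These 15 were Ctsl, Ctsb, Ctsz, Neu1, Hexa, Gusb, Gaa, Gla, Galns, Arsa, Galc, Psap, Mcoln1, Tfeb and Tfec. Some were apart by very little. The highest control and lowest periodontitis library were at 5.291 and 5.292 CPM per kilobase for Tfeb, and at 9.30 and 9.34 for Mcoln1. All p-values adjusted over the whole table stayed at or above 0.0541.

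By role, all 12 glycosidases were higher in periodontitis pups at 2 weeks, each at an unadjusted p under 0.05, with a median log2 fold change of 0.96. Of the peptidases 11 of 12 were higher (median 0.66), of the lipid enzymes and activators 5 of 7 (0.24), of the sulfatases and related enzymes 5 of 7 (0.18), of the membrane proteins 5 of 6 (0.38) and of the last group 3 of 3 (0.79). The 6 members at or below the controls were Ctsc, Hgsnat, Ids, Lipa, Lamp2 and Asah1.

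Ctsl had the smallest p of the 47. Its mean in control pups was 289 ± 108 CPM, against 946 ± 450.5 CPM with affected dams (SD, n = 5), a log2 fold change of 1.71 ± 0.32 (edgeR adjusted p = 0.0541). The groups did not overlap, but periodontitis replicates 1 and 2, at 485 and 425 CPM, were much closer to the highest controls at 383 CPM than to replicates 3, 4 and 5 at 1316, 1201 and 1301 CPM. Gla had means of 16.6 ± 3.04 and 30.7 ± 7.96 CPM, a log2 fold change of 0.89 ± 0.17 (edgeR adjusted p = 0.0541), and its lowest periodontitis library equalled its highest control to 3 digits. Galns had means of 37.05 ± 15.98 and 94.1 ± 28.3 CPM, a log2 fold change of 1.34 ± 0.27 (edgeR adjusted p = 0.0541). Its periodontitis replicate 2 stood at 54.9 CPM, just above control replicate 1, and control replicate 5 was the lowest. Galc had means of 16.4 ± 4.38 and 37.5 ± 10.4 CPM (1.19 ± 0.24, edgeR adjusted p = 0.0541). Tfec had means of 22.5 ± 5.25 and 46.8 ± 7.45 CPM (1.06 ± 0.23, edgeR adjusted p = 0.0545), and was 1 of the members with a clear gap between the groups, from 26.4 to 34.7 CPM. Lgmn had means of 479.6 ± 209 and 1168 ± 372 CPM (1.28 ± 0.28, edgeR adjusted p = 0.0545). The groups of Lgmn overlapped, since periodontitis replicate 2 at 695 CPM was below control replicate 1 at 719 CPM. Ctsz had means of 272 ± 59.5 and 467 ± 106 CPM (0.78 ± 0.17, edgeR adjusted p = 0.0545), and Neu1 of 201 ± 76.1 and 397 ± 73.8 CPM (0.98 ± 0.23, edgeR adjusted p = 0.0625). The lowest periodontitis and highest control library of Ctsz also agreed to 3 digits. Periodontitis replicate 2 was the lowest of its group for each of these 8 members.

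Npl was at 274 ± 68.2 and 474 ± 121 CPM in control and periodontitis pups, with overlap, at a log2 fold change of 0.79 ± 0.29 (edgeR adjusted p = 0.221). Mcoln3 differed by 1.05 ± 0.38, Mcoln1 by 0.61 ± 0.19 and Tfeb by 0.74 ± 0.33 on the log2 scale. For Mcoln1 and Tfeb the lowest control was replicate 5, at 22.6 and 3.30 CPM, where the next controls were at 53.0 and 21.3 CPM. Lamp1 differed by 0.31 ± 0.13 and Lamp2 by -0.12 ± 0.24, and control replicate 5 was again the library that stood apart for Lamp2, at 515 CPM where the other controls were at 177 to 229 CPM.

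**Figure D5:**
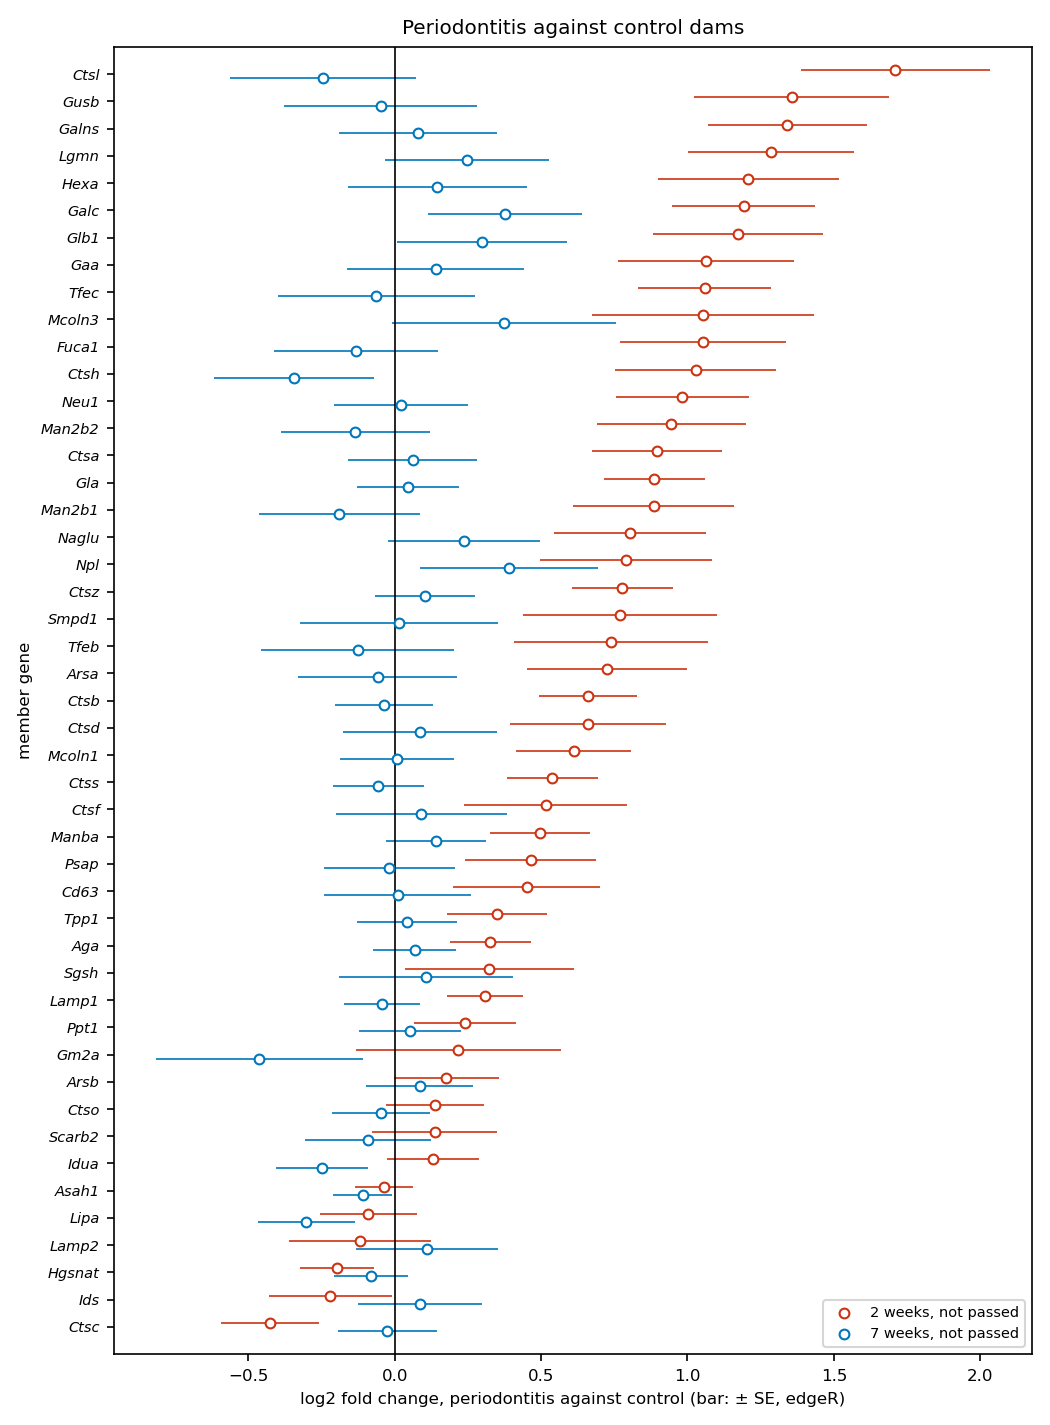
Log2 fold change of each of the 47 members, periodontitis against control, at 2 weeks and at 7 weeks, with its SE as a bar, ordered by the value at 2 weeks. At 2 weeks 41 of the 47 lie above 0 and at 7 weeks 26, and 0 passed an edgeR adjusted p under 0.05 at either age.

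The 2-week difference ran with particular libraries and with other genes. Of the 47 members, periodontitis replicates 1 to 5 had 34, 16, 36, 36 and 36 above every control of that age, and replicate 2 was the lowest of its group for 40. Replicates 3, 4 and 5 were also highest for the 6 endocytosis genes of suckling enterocytes, at 3995, 3909 and 4779 CPM in sum against 2184 and 1560 in replicates 1 and 2. The same libraries were lowest for the 6 weaned enterocyte genes, at 737, 549 and 633 CPM against 1835 and 2208. They were lowest too for 5 genes of the distal intestine, at 420, 309 and 326 CPM against 962 and 870, where controls were at 649 to 1049 CPM. The 6 genes of the proximal intestine summed to 2819, 1986 and 2972 CPM in those 3 libraries, 3357 and 3167 in replicates 1 and 2, and 2884 to 3578 in controls. Macrophage genes differed less, at 307 to 366 CPM against 150.4 to 310 CPM in controls. The part of segment, maturity or cell makeup in the members' difference was not tested. The count of members that passed depended on single libraries: it was 17 without periodontitis replicate 2, 6 without periodontitis replicate 1, 6 without control replicate 5 and 0 without any of the other 7 libraries. Calls over all genes rose in the same fits, to 2.18% without periodontitis replicate 2, 0.541% without periodontitis replicate 1 and 0.276% without control replicate 5. The 6 without control replicate 5 were Ctsl, Tpp1, Hexa, Gla, Galns and Tfec (log2 fold change 0.60 to 1.55), and the 6 without periodontitis replicate 1 were Ctsl, Ctsz, Lgmn, Gla, Galns and Galc (0.82 to 1.88). DESeq2 called 18 members on all libraries, where it called 3.6% of all genes, and each call of a member in any setting was of a higher level in periodontitis pups.

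The further lysosomal enzymes and transport proteins showed the like at 2 weeks: 22 of 28 were above 0, against 52.7% of all genes. An unadjusted p under 0.05 in edgeR was found for 20 of them, against 14.4% of all genes. Their median was 0.49, and 0 passed after adjustment (0.0286% of all genes did). Dpp7 differed by 1.42 ± 0.28 (edgeR adjusted p = 0.0541) and Cln3, a membrane protein of the lysosome, by 1.00 ± 0.22 (edgeR adjusted p = 0.0545). Of the V-ATPase subunits 15 of 16 tested were above 0, with a median of 0.36. The sorting genes and the relatives of Tfeb had medians of 0.05 and 0.00, with 3 of 6 and 7 of 9 above 0. For the sorting genes this was near the share of all genes. All of these values come from the same 10 libraries as those of the members, which they therefore do not back independently.

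At 7 weeks the levels of all 47 members overlapped between the kinds of dam. Of the 47 members 0 passed the edgeR test between the kinds of dam (0.0115% of all genes did), 0 had an unadjusted p under 0.05 (3.33% of all genes), and DESeq2 called 0. The log2 fold change was above 0 for 26 (54.7% of all genes), with a median of 0.02, the same to 2 decimals as over all genes, and for 0 members were the groups apart (0.246% of all genes apart as higher, 0.281% as lower). The smallest p was that of Lipa, with a mean of 238 ± 32.1 CPM in control pups, 193 ± 21.0 CPM with affected dams and a log2 fold change of -0.30 ± 0.17 (unadjusted p = 0.0848 in edgeR). Idua followed at -0.25 ± 0.16, with periodontitis replicates 3, 4 and 5 below all controls and replicate 2 above them. Galc was at 0.38 ± 0.26, Gm2a at -0.46 ± 0.35, Npl at 0.39 ± 0.30, Ctsh at -0.34 ± 0.27, Asah1 at -0.11 ± 0.10 and Glb1 at 0.30 ± 0.29. The means of Gm2a were 18.9 ± 9.02 and 13.7 ± 9.03 CPM, those of Npl 6.28 ± 1.75 and 8.28 ± 3.73 CPM and those of Ctsh 55.7 ± 12.5 and 43.9 ± 11.5 CPM. Ctsl, first at 2 weeks, had means of 97.6 ± 19.1 and 82.4 ± 18.9 CPM at 7 weeks and a log2 fold change of -0.24 ± 0.32. Lgmn was at 0.25 ± 0.28 and Gla at 0.05 ± 0.17.

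The difference between the ages was tested itself, as the log2 fold change between dams at 7 weeks minus that at 2 weeks, which equals the age change in periodontitis pups minus that in control pups. Of the 47 members 0 passed (0.0229% of all genes did), 43 were below 0 with a median of -0.60 where that of all genes was 0.01, and 20 had an unadjusted p under 0.05 (8.80% of all genes). Ctsl had the smallest p, at -1.95 ± 0.45 (edgeR adjusted p = 0.186), followed by Ctsh at -1.37 ± 0.39, Gla at -0.84 ± 0.25 and Galns at -1.26 ± 0.38 (edgeR adjusted p = 0.367, 0.388 and 0.399). All 12 glycosidases were below 0, with a median of -0.94. This contrast uses the 2-week libraries over again, so it is no second observation of their difference. DESeq2 called 1 member in it, Ctsl.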

How the data were processed

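The authors deposited RSEM expected counts per gene for 20 libraries of polyA RNA, stored as whole numbers, so that rounding changed 0 values. Per the submitters' processing notes, reads were handled with cutadapt 4.8, FastQC 0.11.8, STAR 2.7.8a and RSEM 1.3.3. Both GRCh38 and GRCm38 are named there as builds. The annotation release and strandedness are not given in the sources used here. The table's 4 rows that name no gene held 0 counts. Groups and replicate numbers were taken from the labels.

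The analysis used edgeR 4.0.16 under R 4.3.3: filterByExpr with the 4 groups (17464 genes, at most 0.0838% of a library's counts removed), TMM, 1 mean per group over all 20 libraries and the robust quasi-likelihood test (16 residual degrees of freedom, common dispersion 0.0989). Adjustment was by Benjamini-Hochberg over the whole table. The SE was worked back from the test, as the size of the log2 fold change over the root of its F statistic. It covers the spread between libraries, whose totals ran from 14882204 to 42563229 counts. Fold changes are those of the fit with the default prior count of edgeR. A prior count of 2 was used only for log2 CPM in the correlations between libraries, the median levels and the Y-linked covariate.

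The members and lists were chosen with earlier results of these data known, and no list was tested. Levels per library are given for the 8 members with the smallest p in each comparison of ages or dams, the 4 with the smallest p in the difference, and 9 members chosen by name, 21 members in all. Up to 3 genes of a pathway list are named per comparison. Other settings tried were DESeq2 1.42.0, edgeR with the size factors of DESeq2, 2 other filters, no robust estimation, the compared groups alone, the replicate number as a block, a covariate of Y-linked transcripts, and each library or 2 libraries left out. Coordinates and lengths are from GENCODE M21 and promoters from RefSeq, both on GRCm38; of 46 promoter entries compared with transcript starts 44 matched. Tested on simulated data for the comparison of dams at 2 weeks (16996 genes), the procedure recovered 10.4%, 52.2% and 100% of genes changed by 1.5, 2 and 4 times, with 6 false calls. For age in control pups (16971 genes) it recovered 7.46%, 62.7% and 97.0%, with 4 false calls. Each simulation changed few genes and otherwise gave all groups the same mean, with a spread estimated over all 20 libraries. In the data 61.5% of genes passed with age in control pups, so the rates for age do not carry over to that test.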

Additional observations from a re-analysis of the deposited data

Results flagged for a closer look

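Of 88 groups of 5 libraries examined for the 21 members with levels per library and for the members' sum, 8 held a library far from the other 4. A chance rate of about 1 in 20 holds for independent groups. Here the same libraries serve every gene, so the count of 8 cannot be set against that rate. Control replicate 5 at 2 weeks, the library with 29.4% mitochondrial counts, was high for Lamp2 at 515 CPM (the other controls were at 177 to 229), for Lipa at 299 CPM (149 to 188) and for Tpp1 at 159 CPM (68.1 to 90.4). Control replicate 4 at 2 weeks was low for Npl at 154 CPM (292 to 321) and for Tfec at 13.3 CPM (23.7 to 26.4). Periodontitis replicate 2 at 2 weeks was low for Lamp1 at 715 CPM (836 to 882). Periodontitis replicate 5 at 7 weeks was low for Neu1 at 31.9 CPM (50.1 to 56.0). Control replicate 1 at 7 weeks was low for the sum of the 47 members at 5026 CPM (5512 to 5667). The causes were not tested.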

How the results depend on the processing

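The falls with age were stable in number: over the single libraries left out, 20 to 25 members fell in control pups and 29 to 32 in periodontitis pups, and the rises numbered 3 to 9 and 3 to 5. The rises were 2 in control and 1 in periodontitis pups with no filter on low counts, and 3 in control pups in a fit to the compared groups alone. For dams at 2 weeks the count of members called higher was 0 in the main test, 18 with DESeq2, 1 with no filter (Ctsl), 2 without robust estimation (Ctsl and Gla), 20 without control replicate 5 at 2 weeks and periodontitis replicate 5 at 7 weeks together, and 0 to 17 with a single library left out. In that order, 0.0286%, 3.6%, 0.0223%, 0.0973%, 2.04% and 0 to 2.18% of all genes were called in either direction. Over all genes the main test called 5 and DESeq2 599 at 2 weeks, 2 and 25 at 7 weeks, and 4 and 65 for the difference between ages. For that difference the count of members was 1 with DESeq2 (Ctsl) and 1 with both libraries left out (Man2b1). The median log2 fold change at 2 weeks was 0.50 to 0.78 with a library left out, the lowest without control replicate 5. Ctsl was positive in all 20 settings at 2 weeks (1.55 to 1.90), with an adjusted p from 0.000178 to 0.249. Lamp1 with age in periodontitis pups, at 0.01, turned to -0.064 with no filter, and ran from -0.038 without periodontitis replicate 2 at 2 weeks to 0.066 without periodontitis replicate 5 at 7 weeks; it was below 0 without periodontitis replicate 2, 3 or 4 at 7 weeks as well. Replicate numbers are shared between groups, and the labels do not say whether they pair libraries. Deviations of same-numbered libraries from their group means correlated at -0.40 to 0.29, which cannot settle whether any were paired. With the replicate block 0 members passed at 2 weeks (median 0.73), 20 fell and 5 rose with age in control pups (-0.39), and 30 fell and 4 rose in periodontitis pups (-1.03). Scaling by DESeq2 size factors moved the median of all genes by less than 0.1. The causes were not tested. At this depth and n, changes of 1.5 times between dams were mostly missed in simulation, where few genes were changed and all groups shared a spread.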
